A study of Mus musculus with 14 samples.

Results

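The comparison of neonatal cortex between maternal and paternal duplication of proximal chromosome 7 rests on 4 of the study's 14 arrays, chosen by their labelled tissue. All mice were T9H/+, heterozygous for a reciprocal translocation of chromosomes 7 and 15, with the proximal segments of both chromosomes duplicated from 1 parent. MatDp7 mice carried matdup proximal Chr 7 with patdup proximal Chr 15, and PatDp7 mice carried patdup proximal Chr 7 with matdup proximal Chr 15, so the 2 groups differ in the parental origin of both segments. Each group has 2 arrays of neonatal cortex, numbered replicate 1 and replicate 2, and replicate 1 was compared with replicate 1 and replicate 2 with replicate 2. The same duplications were also hybridised from other tissues: 4 arrays each for neonatal cerebellum and for brain at 15.5 dpc, and 2 for brain at 13.5 dpc. The labels call the replicates biological but give neither animals nor pools, so p-values measure the spread between these samples only. No array of T9H/+ mice with balanced segments or of wild type cortex was used here, so every value is PatDp7 against MatDp7.

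Imprinted genes are transcribed mainly or only from the copy of 1 parent, as set by DNA methylation that differs between egg and sperm. Proximal chromosome 7 of the mouse holds the Peg3 domain and, farther along, the domain that corresponds to the human Prader-Willi and Angelman syndrome region, which contains Ndn, Magel2, Mkrn3, Snurf and Snrpn as paternally expressed genes and Ube3a as a gene that neurons express from the maternal copy. In offspring of T9H heterozygotes, both copies of a duplicated proximal segment come from the same parent and the other parent gives none, so a gene read only from the missing parent's copy has no active copy.

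The sequences at the starts of the genes that the comparison turns on are printed with each CG pair, the site of DNA methylation in mammals, in capitals. They are RefSeq sequences of GRCm38.p6, 5′ to 3′ on the strand of the gene named first. Peg3 and Usp29 are read away from each other, and for them the 96 bases between their outermost ends in the gene table are shown, while the CG counts given for them start from the promoter table's start sites, which lie inside those ends. For the others the 150 bases before the start site are shown, and Snurf shares that start with 1 of the 4 start sites given for Snrpn.
Peg3 and Usp29 interval, chr7:6730463-6730558, minus strand: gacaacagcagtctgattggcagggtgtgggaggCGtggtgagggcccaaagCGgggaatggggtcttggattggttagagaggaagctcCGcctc
Ndn, chr7:62348127-62348276, plus strand: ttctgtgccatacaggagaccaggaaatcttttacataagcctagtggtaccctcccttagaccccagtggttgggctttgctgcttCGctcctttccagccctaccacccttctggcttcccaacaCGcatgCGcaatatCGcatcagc
Snurf and Snrpn, chr7:60005200-60005349, minus strand: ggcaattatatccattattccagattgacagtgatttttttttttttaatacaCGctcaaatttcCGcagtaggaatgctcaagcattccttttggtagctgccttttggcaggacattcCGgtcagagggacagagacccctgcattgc
Ube3a, chr7:59228600-59228749, plus strand: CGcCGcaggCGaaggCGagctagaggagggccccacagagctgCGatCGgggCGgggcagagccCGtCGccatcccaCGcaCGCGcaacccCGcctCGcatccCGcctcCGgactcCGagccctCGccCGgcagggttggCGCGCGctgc
In the 250 bases before the start site, the search for CG found 24 in Ube3a, 14 in Usp29, 10 in Mkrn3, 8 in Peg3, 8 in Peg12, 7 in Magel2, 5 in Ndn and 3 in Snurf. CG reads the same on both strands, and 92.1% of 32851 promoter windows of that length hold at least 1, with a median of 6 and quartiles of 2 and 16. As many as in Ube3a were found in 12% of the windows. Methylation was not measured in these arrays, and the counts describe the letters only.

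Most of the variation among the 4 arrays lay between replicate numbers and not between duplications. Of 13576 probe sets tested, 10.8% differed by more than 1 on the log2 scale between the 2 MatDp7 arrays and 16.7% between the 2 PatDp7 arrays, but 3.96% between the duplications in the replicate 1 pair and 0.796% in the replicate 2 pair. The X-inactivation transcript Xist, made by female cells, read 257 and 437 on the replicate 1 arrays and 3956 and 5108 on the replicate 2 arrays at its brightest probe set. Y-linked Eif2s3y, a translation factor gene, read 97.2 and 113 on replicate 1 and 0.662 and 0.932 on replicate 2. Each number thus has 1 array of each duplication, and sex is not given in the labels. All 5 forebrain identity genes on the array (Lhx2, Neurod6, Tbr1, Dlx1 and Dlx2) read higher on all 4 cortex arrays than on all 4 cerebellum arrays, and Neurod6 read 1183 to 1669 against 123 to 215. En1, En2, Irx2, Irx3, Irx5, Barhl1, Cbln1 and Pcp2 read lower on all 4 cortex arrays, and the other 9 of 17 hindbrain and cerebellum genes overlapped. The hypothalamic peptide gene Oxt read 1498 and 1200 in MatDp7 and 1620 and 1077 in PatDp7, and the labels' description adds the word forebrain to cortex.

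Few of the tested probe sets distinguished the duplications, and every one of them called higher in PatDp7 belonged to 3 imprinted loci of proximal chromosome 7. A probe set was called when limma's Benjamini-Hochberg adjusted p, with same-numbered arrays blocked, was under 0.05. Of the 13576 tested, 18 were called (0.133%), 12 higher (0.0884%) and 6 lower (0.0442%) in PatDp7, while 1131 had an unadjusted p under 0.05. The 12 higher ones were 5 of Ndn, 4 annotated to both Snurf and Snrpn, and 3 of Peg3. The 6 lower ones were 1 each of Ube3a, C230091D08Rik, Elp2 and Nup50 and 2 with no gene in the annotation. Without the block 10 were called (0.0737%), all higher and all among the 12, and the calls of Ube3a (adjusted p = 1 in limma), C230091D08Rik (0.137), Elp2 (0.475), Nup50 (0.156), the unannotated pair (1 and 0.609), 1 Peg3 (0.123) and 1 Snurf and Snrpn probe set (0.166) were lost. With the cortex PatDp7 replicate 2 array left out, 98 were called, 19 higher and 79 lower, 16 of the 18 among them.

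The pairs gave the same direction for the probe sets that moved most. Past a log2 difference of 1, 17 were higher in PatDp7 in both pairs (0.125%), 16 were lower in both (0.118%) and 2 had opposite signs (0.0147%). Past 0.5, 117 were higher in both (0.862%), 143 lower in both (1.05%) and 96 of opposite sign (0.707%). Across all tested probe sets the 2 sets of differences had an r of 0.33, given as a description because genes are not replicates, and an SD of 0.50 in the replicate 1 pair and 0.35 in the replicate 2 pair.

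**Figure D1:**
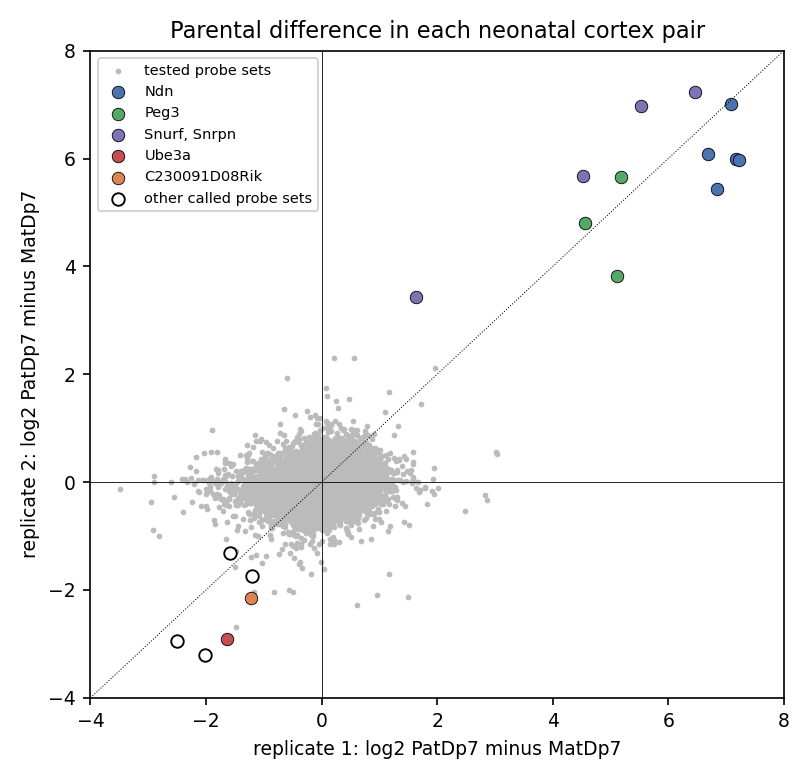
Each point is a probe set, with the log2 difference PatDp7 minus MatDp7 in the replicate 1 pair on the x axis and in the replicate 2 pair on the y axis; grey points are the 13576 tested, colours mark called probe sets of named genes, open circles the other called ones, and the dotted line equal values. The 12 called higher in PatDp7 lie at 1.64 to 7.23 in replicate 1 and 3.44 to 7.24 in replicate 2, apart from the grey cloud.

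Ndn, which encodes necdin, a MAGE family protein that restrains growth and acts in neuronal differentiation, had almost no signal in MatDp7 cortex and was among the bright genes of PatDp7 cortex. Its brightest probe set over all arrays, 1437853_x_at, read 36.4 and 151 in MatDp7 (replicates 1 and 2) and 9067 and 13669 in PatDp7. The groups did not overlap, and the log2 difference was 6.69 in replicate 1 and 6.08 in replicate 2. The fit gave 6.39 ± 0.24 (SE; limma adjusted p = 2.83e-08). Differences are on the log2(intensity + 52.0) scale, and where MatDp7 lies under that constant the constant sets much of their size. Probe set 1455792_x_at read 1.95 and 37.4 in MatDp7 and 7306 and 11527 in PatDp7, a difference of 7.05 ± 0.16. The other 3 called Ndn probe sets rose by 6.58, 6.60 and 6.13, with both MatDp7 arrays under 100 and both PatDp7 arrays at 6357 or more in each.

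The 8 probe sets annotated to Ndn did not respond alike. Those under the intensity filter, 1438978_x_at, 1438939_x_at and 1456575_at, gave differences of 1.53, 0.95 and 0.28 in the fit of all probe sets, and none was called there (limma adjusted p = 0.0955, 0.343 and 0.730). Of the 22626 probe sets in that fit, 16 were called higher (0.0707%) and 4 lower (0.0177%). Of these, 1438939_x_at read 71.5 and 72.3 in MatDp7 and 194 and 180 in PatDp7, dim in all 4 arrays. PatDp7 was above MatDp7 without overlap in all 8 Ndn probe sets, as was the case for 9.52% of the tested probe sets.

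Snurf and Snrpn are made from 1 bicistronic transcript: Snrpn encodes SmN, a splicing protein abundant in neurons, and Snurf a small protein upstream of it. All 4 probe sets annotated to both were called higher, but their MatDp7 signal differed widely. Probe set 1435716_x_at read 7.79 and 4.80 in MatDp7 and 5243 and 8513 in PatDp7. The log2 difference was 6.85 ± 0.21 (limma adjusted p = 4.58e-09). Probe set 1421063_s_at likewise read 28.7 and 3.91 against 3678 and 6954, a difference of 6.25 ± 0.29. In both, MatDp7 was near the bottom of the intensity range.

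The remaining 2 kept a signal in MatDp7. Probe set 1415896_x_at read 406 and 210 in MatDp7 and 10442 and 13354 in PatDp7, a log2 difference of 5.10 ± 0.23. At 1415895_at MatDp7 read 4635 and 1489 and PatDp7 14510 and 16686, so the MatDp7 mean of 3062 ± 2224 (SD, n = 2) stood beside 15598 ± 1539 (n = 2). Its difference was 1.64 in replicate 1 and 3.44 in replicate 2, and 2.54 ± 0.32 in the fit (limma adjusted p = 0.00409). The replicate 1 MatDp7 array was the higher of the MatDp7 arrays here, and the groups did not overlap. A further probe set, annotated to Snrpn alone and under the filter, read 21.9 and 9.53 in MatDp7 and 246 and 252 in PatDp7, a difference of 2.16 (limma adjusted p = 0.0246 in the fit of all probe sets).

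Magel2, Mkrn3 and Peg12 lie beyond Ndn, and all read higher in PatDp7. Only Magel2 was among the tested probe sets, and it was not called. Magel2, another MAGE family gene that acts in endosomal protein sorting and is expressed in hypothalamus, read 263 and 115 in MatDp7 and 654 and 479 in PatDp7. The groups did not overlap, with differences of 1.16 and 1.67, and the mean of 1.42 ± 0.26 missed the threshold (limma adjusted p = 0.103). Of the 12 omissions of an array, 1 made it a call, that of cortex MatDp7 replicate 1. Mkrn3, which encodes a makorin zinc finger protein that restrains the onset of puberty, was under the filter and read 2.92 and 3.44 against 358 and 753. Both MatDp7 arrays were close to 0 and both PatDp7 arrays well above the added constant. In the fit of all 22626 probe sets Mkrn3 was called, with a log2 difference of 3.38 ± 0.36 (limma adjusted p = 0.00682), and the call ended without the block (0.0925). Peg12, an intronless gene related to the GSK3 binding proteins, read 1.42 and 3.29 against 28.3 and 32.5, all 4 below the added constant, and differed by 0.60 (limma adjusted p = 0.511 in that fit). A230006K03Rik, a transcript between Snrpn and Ndn, read 50.2 and 43.2 in MatDp7 and 277 and 106 in PatDp7, and its difference of 1.21 did not pass (0.565).

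The Peg3 domain showed the same direction for its paternally expressed genes. Peg3, a zinc finger gene with roles in growth and maternal behaviour, read 219 and 124 in MatDp7 and 9292 and 2442 in PatDp7 at 1417355_at. PatDp7 was above MatDp7 in both pairs, and its replicates differed more from each other than at any other called Peg3 probe set, with 5867 ± 4843 (SD, n = 2) beside 172 ± 66.7 (n = 2). The log2 difference was 4.46 ± 0.51 (limma adjusted p = 0.00201), and this call was lost when cortex MatDp7 replicate 1 was left out. The other 2 Peg3 probe sets were steadier. At 1433924_at MatDp7 read 86.4 and 28.9 and PatDp7 4976 and 4035, a difference of 5.42 ± 0.24 (limma adjusted p = 1.01e-07). At 1417356_at the values were 6.88 and 4.20 against 1335 and 1512, a difference of 4.68 ± 0.18 (2.83e-08).

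Usp29, a ubiquitin protease gene read away from Peg3 across the interval printed above, was under the filter. Its probe set 1419237_at read 13.3 and 31.4 in MatDp7 and 592 and 547 in PatDp7, with no overlap. In the fit of all probe sets it was called, with a log2 difference of 3.07 ± 0.21 (limma adjusted p = 0.000142), also without the block (0.000432). The other Usp29 probe set, 1427551_at, read 205 and 73.9 against 194 and 144 and overlapped, with a difference of 0.29 (0.740). The 2 probe sets of this gene therefore disagreed.

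Among the maternally expressed genes, Ube3a, the E3 ubiquitin ligase lost in Angelman syndrome, was lower in PatDp7 in both pairs at all 4 of its probe sets, and 1 was called. That probe set, 1416680_at, read 5619 and 1725 in MatDp7 and 1780 and 183 in PatDp7. The groups overlapped, because replicate 1 of PatDp7 was above replicate 2 of MatDp7, while within the pairs PatDp7 was lower by 1.63 and 2.92 on the log2 scale. It fell by 2.27 ± 0.27 in the fit with the block (limma adjusted p = 0.00238) and was not called without it (1), and no omission of 1 array ended the call in the fit with the block. The PatDp7 replicate 2 array kept a signal of 183, and PatDp7 replicate 1 kept 1780.

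The other 3 Ube3a probe sets gave smaller differences. Probe set 1425206_a_at read 340 and 532 in MatDp7 and 248 and 151 in PatDp7, with no overlap, and its log2 difference of -0.95 did not pass (limma adjusted p = 0.443). Probe sets 1416681_at and 1416682_at, under the filter, differed by -1.34 and -0.95 in the fit of all probe sets (0.330 and 0.511). Fewer cells that express a gene and less RNA per cell cannot be told apart in these bulk samples.

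The remaining members of the maternally expressed list differed little. Zim1, a zinc finger gene beside Peg3, read 117 and 131 in MatDp7 and 88.0 and 65.9 in PatDp7, lower in both pairs, with a difference of -0.46 (limma adjusted p = 0.623 in the fit of all probe sets). Zim3, a zinc finger gene on the far side of Usp29, read 273 and 97.9 against 323 and 130, an overlap with a difference of 0.24 ± 0.29 (0.825) that was higher in PatDp7 in both pairs and turned to -0.07 without cortex MatDp7 replicate 2 and to -0.02 without cortex PatDp7 replicate 1. Atp10a, a phospholipid transporter gene beside Ube3a, stayed at or under 13.9 on all 4 arrays, with differences of 0.22 and 0.04 in the pairs.

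C230091D08Rik was the called gene whose direction opposed its list. The gene table gives the name as a synonym of Snhg14, the long noncoding RNA that runs from the Snrpn side across Ube3a in the opposite direction and is listed as paternally expressed. Its probe set 1438695_at read 935 and 1425 in MatDp7 and 373 and 281 in PatDp7, without overlap. It fell by 1.68 ± 0.23 on the log2 scale (limma adjusted p = 0.0102), as Ube3a did, and the call was lost without the block and in 2 of 12 fits that left out 1 array (cortex MatDp7 replicate 2 or PatDp7 replicate 2). The second probe set, 1437354_at, read 757 and 964 against 342 and 308, a difference of -1.27 (0.104). Which strand these probe sets read was not tested, so transcripts of Ube3a and of its antisense partner cannot be told apart in them.

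Counted by gene, with 1 probe set each, 4 of 12 listed paternally expressed genes were tested, and 2 were called higher (Ndn and Peg3) and 1 lower (C230091D08Rik), while Magel2 was not called. Of 5 listed maternally expressed genes 2 were tested and 1, Ube3a, was called lower. Among all 8156 tested genes 4 were called (0.049%), 2 higher (0.0245%) and 2 lower (0.0245%), and they are Ndn, Peg3, C230091D08Rik and Ube3a. The 4 tested paternally expressed genes had groups that did not overlap, 3 with PatDp7 above, as in 9.91% of all tested genes, and 1 with PatDp7 below, as in 10.3%. The lists were written with results of these arrays known, and the counts describe them only.

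**Figure D2:**
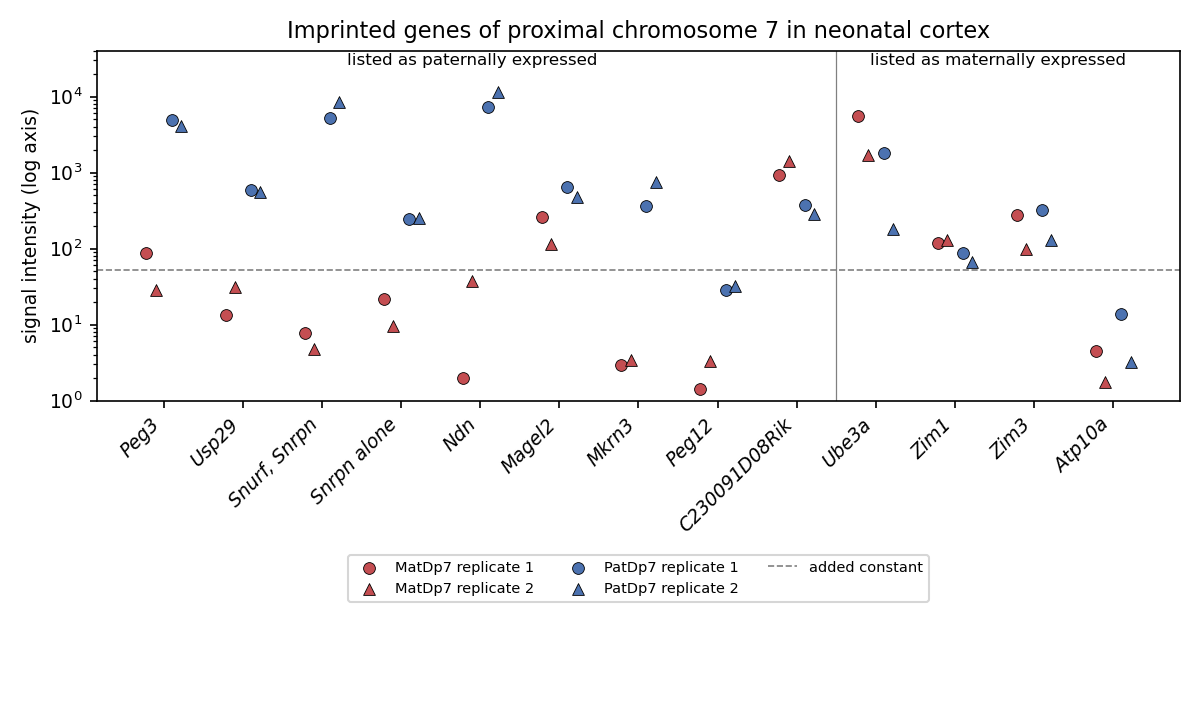
Signal intensity (log axis) of the probe set with the largest difference for each measured imprinted gene of proximal chromosome 7 in the 4 neonatal cortex arrays; red is MatDp7, blue PatDp7, circles replicate 1, triangles replicate 2, and the dashed line the added constant of 52.0. PatDp7 lies above MatDp7 for the genes listed as paternally expressed except C230091D08Rik, and Ube3a is lower in PatDp7 within each replicate number, 5619 to 1780 and 1725 to 183.

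No gene of chromosome 7 outside the imprinted domains was called. The array has 55 genes up to and including the Peg3 domain, 401 between the domains, 9 from Atp10a to Peg12 and 493 beyond. Of the 221 tested genes between the domains and the 335 beyond Peg12, none was called, and their median log2 differences were 0.00 and 0.01. Over all tested genes the median was 0.02.

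The 10 genes of the array on either side of each domain were also looked at, and those at the edges are given here. Zfp28, a zinc finger gene next to Zim1, read 13.4 and 37.8 in MatDp7 and 13.9 and 8.81 in PatDp7, a difference of -0.28. Aurkc, a meiotic kinase gene next to Zim3, read 162 and 89.0 against 451 and 112, a difference of 0.73 with overlapping groups (limma adjusted p = 0.622 in the fit of all probe sets). Neither gene was called in that fit, and Peg3 and Usp29 lie a few genes away. Both genes were under the filter, and in simulation 24% of changes of 1 were recovered. The lack of a call therefore cannot show how sharply the signal ended.

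At the Prader-Willi domain the genes at the edges were not called either, and Gabrg3 and Chrna7 were likewise under the filter. Gabrg3, a GABA-A receptor subunit gene next to Atp10a, read 201 and 88.9 in MatDp7 and 439 and 140 in PatDp7, a difference of 0.70 (0.586, limma adjusted p in the fit of all probe sets). Chrna7, a nicotinic receptor subunit gene next to Peg12, read 123 and 155 against 157 and 167, a difference of 0.17. Otud7a, a deubiquitinase gene next to Chrna7, read 694 and 381 against 997 and 543, higher in PatDp7 within both pairs by 0.49 and 0.46, and did not pass (limma adjusted p = 0.587). Herc2, a large ubiquitin ligase that binds UBE3A, read 497 and 964 against 536 and 582, a difference of -0.29 (0.790).

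Between the domains, a probe set of the prefoldin-like gene Uri1 and the ribonuclease P gene Pop4 had PatDp7 below MatDp7 without overlap and were not called. PatDp7 was likewise below without overlap in 12.7% of the tested genes there and 10.8% of all tested probe sets. Ech1 was one of those genes, with a larger difference than Pop4, -1.23 (limma adjusted p = 0.331). Uri1 1433913_at read 504 and 629 in MatDp7 and 234 and 213 in PatDp7, a difference of -1.16 ± 0.21 (limma adjusted p = 0.0867), while its other 2 probe sets differed by 0.03 and 0.20. Pop4 read 327 and 490 against 226 and 179, a difference of -0.84 (0.462).

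**Figure D3:**
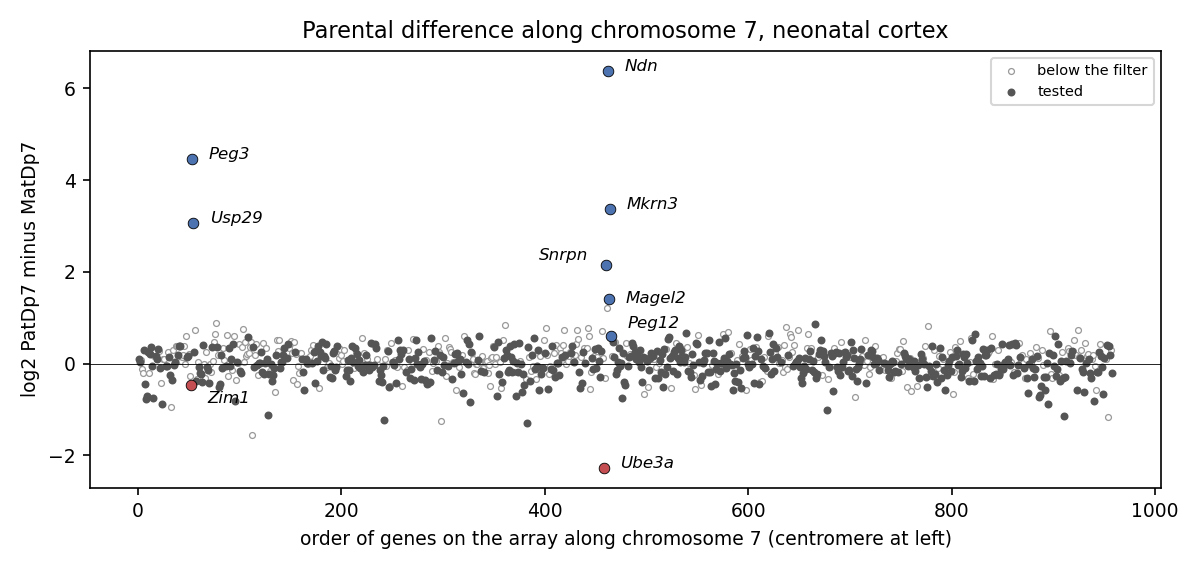
Log2 difference PatDp7 minus MatDp7 in neonatal cortex of each gene of the array (1 probe set per gene), in gene order along chromosome 7 from the centromere at the left; filled points were tested and open ones lie under the filter, and named imprinted genes are coloured. Peg3 (4.46) and Usp29 (3.07) stand out at the first domain and Ndn (6.39), Mkrn3 (3.38) and Ube3a (-2.27) at the second. The tested genes between the domains and beyond Peg12 have medians of 0.00 and 0.01. Single uncalled genes there lie farther out, among them Ech1 (-1.23) and Rpl27a (0.87).

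The 4 other called probe sets, 1 on chromosome 18, 1 on chromosome 15 and 2 with no gene or chromosome in the annotation, were lower in PatDp7. The probe set of Elp2 on chromosome 18, a subunit of the Elongator complex that modifies transfer RNA, read 276 and 311 in MatDp7 and 57.3 and 93.3 in PatDp7. PatDp7 was below MatDp7 in both pairs, by 1.58 and 1.32, and the fit gave -1.45 ± 0.21 (limma adjusted p = 0.0124). In the fit of all probe sets this probe set was not called (limma adjusted p = 0.0577). The second Elp2 probe set read 2419 and 2172 against 3833 and 2130 and overlapped, a difference of 0.31 (0.714), so the gene's probe sets disagreed. The Elp2 call was lost in 3 of 12 fits that left out 1 array, those without cortex MatDp7 replicate 1, MatDp7 replicate 2 or PatDp7 replicate 1.

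Nup50 on chromosome 15, a nuclear pore protein gene, read 274 and 367 in MatDp7 and 89.3 and 73.0 in PatDp7 at 1428328_at. The groups did not overlap, and the difference was -1.48 ± 0.22 (limma adjusted p = 0.0174). In the fit of all probe sets Nup50 was not called (limma adjusted p = 0.0727). Its other 2 probe sets overlapped between the groups, with differences of -0.03 and 0.04 (0.979 and 0.966). The Nup50 call was lost in 3 of 12 fits that left out 1 array, those without cortex MatDp7 replicate 2, PatDp7 replicate 1 or PatDp7 replicate 2. Whether Nup50 lies in the duplicated part of chromosome 15 was not tested.

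The 2 unannotated probe sets had larger differences. 1435137_s_at read 983 and 1800 in MatDp7 and 131 and 189 in PatDp7, a difference of -2.72 ± 0.34 (limma adjusted p = 0.00409), lost without cortex MatDp7 replicate 1. 1453238_s_at read 3384 and 2066 against 795 and 179, a difference of -2.61 ± 0.33 (0.00409), lost without either of the MatDp7 arrays in turn. A further unannotated probe set, 1427932_s_at, read 4362 and 4138 against 1916 and 973 and was not called (-1.60, adjusted p = 0.103). All 3 had PatDp7 below MatDp7 without overlap, which 10.8% of all tested probe sets shared.

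The imprinted genes called in cortex differed in the same direction in the other tissues, whose arrays also enter the estimate of the spread behind the cortex calls. In the order cortex, cerebellum and 15.5 dpc brain, the log2 difference of Ndn 1437853_x_at was 6.39, 5.99 and 6.61. For Peg3 1417355_at the values were 4.46, 5.70 and 3.58, and for Ube3a 1416680_at -2.27, -2.97 and -1.57. Those of Nup50 1428328_at were -1.48, 0.10 and 0.09. The unannotated 1435137_s_at gave -2.72, -3.00 and 0.35, and 1453238_s_at gave -2.61, -3.53 and 0.42, so both were lower in PatDp7 in both neonatal tissues. None of these differences between tissues passed the test of the difference itself. The labels do not say whether same-numbered cortex and cerebellum arrays come from the same animals, so the neonatal tissues may not be independent.

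Of 13576 probe sets, 1 passed the test that the parental difference in cortex differs from that in cerebellum (0.00737%), and 0 passed that against 15.5 dpc brain (0.0%), in limma with the block; 479 and 496 had an unadjusted p under 0.05. The 1 was Elp2 1415774_at, at -1.45 in cortex and 0.996 in cerebellum, a difference of -2.45 ± 0.29 (limma adjusted p = 0.0366). On the cerebellum arrays it read 110 and 175 in MatDp7 and 268 and 404 in PatDp7, the opposite order to cortex. No call was left without the block, without the filter, or with cortex MatDp7 replicate 1 or 2, cortex PatDp7 replicate 1, cerebellum MatDp7 or PatDp7 replicate 1, or either 15.5 dpc MatDp7 array left out. Against 15.5 dpc brain, 24 were called without 15.5 dpc MatDp7 replicate 1 and 3 without cortex PatDp7 replicate 1. Next by p against cerebellum came Nup50, the unannotated probe set 1450072_at and Rela, a subunit of NF-kappaB, with differences of -1.58, 1.52 and 1.22 (limma adjusted p = 0.9997 for each).

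**Figure D4:**
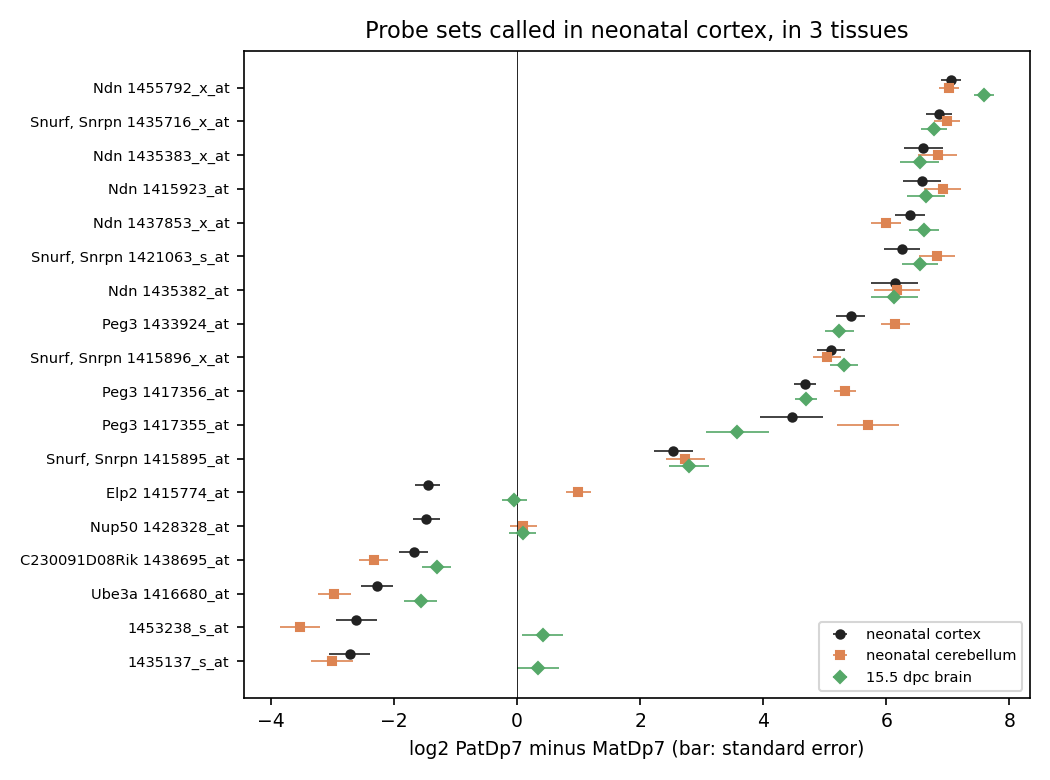
Log2 difference PatDp7 minus MatDp7 (points, with SE bars from limma) of the 18 probe sets called in neonatal cortex, in cortex (black), neonatal cerebellum (orange) and 15.5 dpc brain (green). The Ndn, Snurf, Snrpn and Peg3 probe sets lie at 2.54 to 7.59 in every tissue, and Elp2 is the probe set whose cortex (-1.45) and cerebellum (0.996) values differ by the test.

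Several genes with 1 annotated gene per probe set had large differences in both pairs and were not called. Kcnk4, a leak potassium channel gene, read 57.5 and 90.6 in MatDp7 and 308 and 336 in PatDp7, a difference of 1.58 ± 0.30 (limma adjusted p = 0.103). Rpl37a, a ribosomal protein gene, read 170 and 129 against 810 and 738 at 1416218_x_at, a difference of 2.04 (0.514), while its other 2 probe sets differed by -0.06 and -0.03. On the cerebellum arrays 1416218_x_at varied within each duplication, at 163 and 690 in MatDp7 and 635 and 143 in PatDp7. Both genes had PatDp7 above MatDp7 without overlap in cortex at the probe set named, as did 9.52% of the tested probe sets. Neither passed the test. Kcnk4 did pass when either of the cerebellum PatDp7 arrays was left out.

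In the other direction, Sfrp1, a secreted inhibitor of Wnt signalling, read 1870 and 347 in MatDp7 and 222 and 147 in PatDp7, a difference of -1.91 ± 0.35 (limma adjusted p = 0.103). Its other 3 probe sets differed by 0.05, -0.96 and -0.31. Zfp746, a zinc finger gene, read 334 and 379 against 84.0 and 93.3 (-1.54, adjusted p = 0.587), and Klf15, a Krüppel-like factor gene, 300 and 400 against 112 and 175 (-1.05, 0.268). At 15.5 dpc the Zfp746 probe set varied within each duplication, at 252 and 85.0 in MatDp7 and 81.6 and 379 in PatDp7. The transcription factor genes Nfia and Pou3f2 read 1181 and 296 against 391 and 91.1 (-1.38, 0.572) and 822 and 229 against 226 and 83.9 (-1.35, 0.572). Sfrp1 passed without cortex MatDp7 replicate 2 or PatDp7 replicate 2, and Pou3f2 without 15.5 dpc MatDp7 replicate 2. Within each cortex pair all of these genes were lower in PatDp7 by about 1 or more on the log2 scale at the probe set read.

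Imprinted genes elsewhere were not called. Of 24 tested genes imprinted on other chromosomes, 0 were called and 4 had an unadjusted p under 0.05 in limma (Asb4, Plagl1, Dlk1 and H13, all lower in PatDp7), 11 were lower and 3 higher in both pairs, and the median was -0.17. By comparison, 26.1% of all tested genes were lower and 31.6% higher in both pairs. Dlk1, a Notch-related growth regulator, read 594 and 1168 in MatDp7 and 413 and 409 in PatDp7, a difference of -0.94 ± 0.41 (limma adjusted p = 0.594). Plagl1, a zinc finger growth regulator, read 2272 and 3474 against 1584 and 2246, a difference of -0.56 (0.572). Farther along chromosome 7, in the distal imprinted list, Cdkn1c, an inhibitor of cyclin-dependent kinases, read 2446 and 1180 against 1332 and 670.1, lower in both pairs by 0.85 and 0.77 (-0.81, adjusted p = 0.514). On chromosome 15, Chrac1 and Ago2 differed by -0.33 and 0.33 (0.669 and 0.775). Cdkn1c is in the distal list, while the labels name the proximal part of chromosome 7 as duplicated. Whether Chrac1 and Ago2 lie in the duplicated segment of chromosome 15 was not tested.

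Genes tied by function to the imprinted ones are described by list, with no test of a list. Over all tested genes, 26.1% were lower and 31.6% higher in both pairs. Of the 13576 tested probe sets, 1131 had an unadjusted p under 0.05 in limma. The core Sm and related splicing genes, partners of SmN, had 14 tested members, 0 called and 3 with an unadjusted p under 0.05 in limma. PatDp7 was lower in both pairs for 10 of the 14 and higher for 0, with a median of -0.22, and the largest was Lsm2, a ring protein of the U6 particle, at -0.57 (limma adjusted p = 0.594). Snrpa1, a U2 particle protein gene, read 615 and 711 against 440 and 534, a difference of -0.41 (0.587). Among 11 substrates and interactors of UBE3A, 0 were called and 0 had an unadjusted p under 0.05 in limma, with a median of -0.04. Ring1, a Polycomb ubiquitin ligase gene and the member with the smallest p, read 572 and 461 against 443 and 324 (-0.39, 0.613). The MAGE family and necdin partners had 18 tested members with a median of -0.03, of which Magel2 differed most.

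Lists of cell types and states were also without calls, and their counts stand beside 26.1% of all tested genes lower in both pairs. Meningeal genes had 13 members on the array and 11 tested, with 0 called, a median of -0.40 and PatDp7 lower in both pairs in 8 of 11. Their summed intensity was 23135 and 23594 in MatDp7 and 16178 and 20963 in PatDp7, and no member was listed at 0. Col3a1, a collagen gene, read 1492 and 1398 against 922 and 701 (-0.80, limma adjusted p = 0.599), and Igfbp2, an IGF binding protein gene, 1286 and 3468 against 511 and 2848 (-0.76, 0.514). Choroid plexus genes had 5 tested with a median of -0.45, and their sums were 16206 and 14407 in MatDp7 and 11572 and 16289 in PatDp7, so the sum, most of which is Ttr, had the reverse order in the replicate 2 pair. The list's median was -0.41 in replicate 1 and -0.58 in replicate 2, with 4 of 5 members lower in PatDp7 in both pairs. What these marker differences contribute to other values was not tested.

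Apart from the paternally expressed genes, synaptic vesicle and release genes had the highest list median, 0.29 over 13 tested members, with 8 higher and 1 lower in both pairs and 0 called (1 at an unadjusted p under 0.05 in limma). Of all tested genes, 31.6% were higher in both pairs. Stx1a, a syntaxin of the release machinery, read 1518 and 1473 in MatDp7 and 1660 and 2578 in PatDp7 (0.46, limma adjusted p = 0.587), and Syt1, the calcium sensor of release, 1478 and 2435 against 2357 and 2963 (0.47, 0.621). The replicate 2 pair carried most of the list's shift, with a median of 0.35 against 0.02 in replicate 1. Oligodendrocyte lineage genes had 10 tested with a median of 0.20, of which 5 were higher and 1 lower in both pairs. Their medians were 0.05 in replicate 1 and 0.38 in replicate 2, and the lowest member was at -0.19. The highest was Mbp, a myelin protein gene, which read 338 and 384 against 622 and 543 (0.62, 0.548). The microglial genes moved apart: C1qa, a complement gene, differed by -1.18 (0.417) and Cx3cr1, a chemokine receptor gene, by 1.18 (0.587).

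The other lists agreed between the pairs to a varying extent. Hypoxia and glycolysis genes had a median of -0.51 in replicate 1 and 0.08 in replicate 2, and oxidative phosphorylation genes -0.45 and -0.02. Glucocorticoid-induced genes had medians of -0.27 and -0.36, and immediate early genes -0.26 and -0.05. The peptide gene Avp, a marker of hypothalamus, read 600 and 2122 in MatDp7 and 389 and 492 in PatDp7, a difference of -1.28 ± 0.35 (limma adjusted p = 0.462). It was the lowest of 11 tested hypothalamus and diencephalon genes, whose median was -0.02 and whose highest value was 0.50. Of the 11, 3 were higher and 2 lower in both pairs, and the list medians were 0.11 in replicate 1 and -0.18 in replicate 2. Interneuron and striatal genes were lower in both pairs in 10 of 16 tested, with a median of -0.24 (-0.23 in replicate 1 and -0.10 in replicate 2). The share of all tested genes lower in both pairs was 26.1%. Cortical glutamatergic genes had a median of 0.09 over 13, which was -0.05 in replicate 1 and 0.23 in replicate 2.

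**Figure D5:**
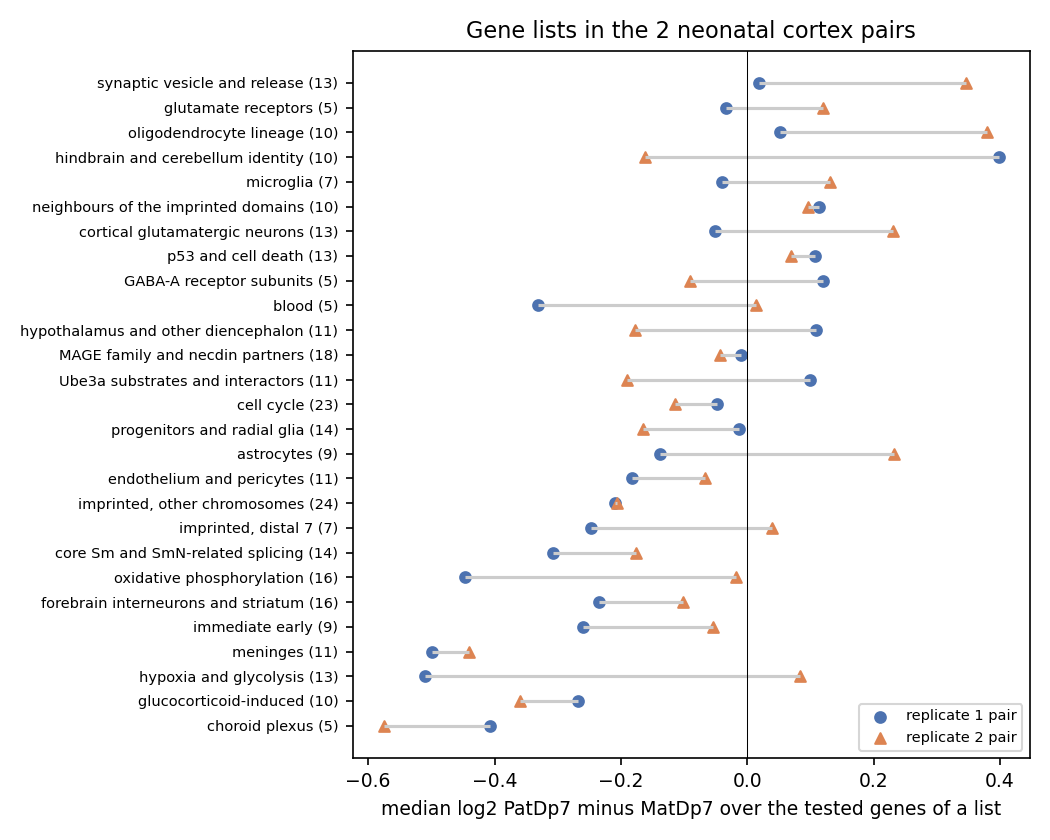
Median log2 difference PatDp7 minus MatDp7 over the tested genes of each list with at least 5 (number in brackets), in the replicate 1 pair (blue circles) and the replicate 2 pair (orange triangles). Meningeal genes lie below 0 in both pairs (-0.50 and -0.44), and hypoxia and glycolysis genes differ between the pairs (-0.51 and 0.08).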

How the data were processed

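Biotin-labelled total RNA was hybridised to Affymetrix GeneChip 430A arrays. The deposited values are linear signal intensity from MAS5 (tool named in the submitters' processing notes). Every array had a 2% trimmed mean near 500.1, so the authors' scaling was kept. Of 22690 probe sets 64 are controls, and of the other 22626 the platform annotation gives 1 gene to 20380, several to 691 and none to 1555.

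A constant of 52.0273, the 20th percentile of the intensities, was added before taking log2. Testing was limited to the 13576 probe sets (8156 genes) whose mean log2 intensity reached the 40th percentile. With limma 3.58.1 in R 4.3.3, 8 group means were fitted to all 14 arrays, with the neonatal replicate number as a block and an intensity trend (5 residual and 6.82 prior degrees of freedom). A gene was represented by its probe set with the highest mean.

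The block follows the comparison's definition. Same-numbered neonatal samples deviated together from their group means (r of 0.71 to 0.82, and 0.76 for the cortex groups), but the pairing comes from the numbers in the labels alone.

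Genes were named by these rules: all probe sets of the imprinted lists of proximal chromosome 7, all called probe sets, the 10 in each direction with the largest difference shared by both pairs, up to 4 members of a list by p, and the smallest p in the tissue comparisons. Oxt, Uri1, Pop4, Ech1, Rpl27a, A230006K03Rik, 1427932_s_at and the neighbours of the domains were named by position or after their values were seen. Members, lists and tests were chosen with earlier results of these data known. Gene order and sequences came from RefSeq tables of GRCm38.p6, and a genome build for the arrays is not given in the sources used here.

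On simulated data of 13576 probe sets, 50 changed at each of 4 log2 sizes, the fit recovered 2% of those changed by 0.5, 24% of those by 1, 90% of those by 2 and 100% of those by 4, with 3 false among 111 calls. Alternatives covered the block, filter, constant, scaling, trend, the cortex arrays alone and the omission of each of 12 arrays. Plots used Python 3.11.15 with matplotlib 3.10.9.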

Additional observations from a re-analysis of the deposited data

Results flagged for a closer look

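The 18 probe sets called in cortex were searched for those with both cortex pairs one way and both pairs of another tissue the opposite way. Differences of any size counted, and probe sets not called in cortex did not. There were 4 such cases. Elp2 (1415774_at) differed by -1.58 and -1.32 in cortex and by 0.98 and 1.01 in cerebellum, and the difference of -2.45 passed the test (limma adjusted p = 0.0366). The unannotated 1435137_s_at differed by -2.50 and -2.94 in cortex and by 0.28 and 0.41 in 15.5 dpc brain, a difference of -3.07 that did not pass (limma adjusted p = 0.2499). The unannotated 1453238_s_at differed by -2.02 and -3.20 in cortex and by 0.28 and 0.55 in 15.5 dpc brain, a difference of -3.03 (0.2499). Neither is particular to cortex, because in cerebellum 1435137_s_at differed by -3.00 and 1453238_s_at by -3.53 (limma adjusted p = 0.00117 and 0.000201). Nup50 (1428328_at) differed by -1.21 and -1.75 in cortex and by 0.12 and 0.06 in 15.5 dpc brain, a difference of -1.57 (0.998). Groups of 2 arrays are too small for a check of single outlying arrays.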

How the results depend on the processing

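The 18 calls in cortex became 10 with no replicate block, all of them among the 18, and 74 (24 higher, 50 lower) when the 4 cortex arrays were fitted alone, a fit with 1 residual degree of freedom. They numbered 17 to 98 when 1 array was left out; the 98 came without cortex PatDp7 replicate 2, and the other omissions gave 17 to 25. Under the other settings 17 to 23 were called. The 1 call against cerebellum became 0 without the block, 0 without the filter and 0 to 3 with 1 array left out (3 without cortex PatDp7 replicate 2, 2 without cerebellum PatDp7 replicate 2, and 0 without any 1 of the other cortex arrays, without cerebellum MatDp7 or PatDp7 replicate 1, or without either 15.5 dpc MatDp7 array). Against 15.5 dpc brain, 0 became 0 to 24, with 3 without cortex PatDp7 replicate 1 and 24 without 15.5 dpc brain MatDp7 replicate 1. Of probe sets past 1 in both pairs in the same direction, 33 became 21 with the larger added constant and 260 at a threshold of 0.5. The 4 called genes in the lists became 1 without the block. The causes were not tested. No called result changed sign; the median of 13 of 29 lists did, 12 of them within 1 pair alone (astrocytes from -0.11 to 0.23 and distal 7 from -0.18 to 0.04, in replicate 2) and 4 under a scaling (p53 and cell death from 0.06 to -0.0014), as did uncalled Zim3. Median scaling moved the median difference of all tested probe sets in the replicate 1 pair from 0.02 to -0.11; relative to the median of all tested genes, every list kept its sign under the scalings as deposited, quantile and median except the hypothalamus and blood lists. The fits of all probe sets without the block, with quantile or with median scaling were chosen after seeing the data. In simulation 2% of changes of 0.5 and 24% of changes of 1 on the log2 scale were recovered, so most differences of these sizes would not be called.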
